A study of Mus musculus with 2 samples.

Results

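The transcripts that make, load and give direction to the signal of GABA, the main inhibitory transmitter of the brain, were followed across the cell classes of the embryonic dorsal telencephalon. The group comprised 5 of the 32285 genes in the deposited matrices, chosen by symbol: Gad1 (ENSMUSG00000070880), Gad2 (ENSMUSG00000026787), Slc32a1 (ENSMUSG00000037771), Slc12a2 (ENSMUSG00000024597) and Slc12a5 (ENSMUSG00000017740). Each had a single row and was detected in both libraries.

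Gad1 and Gad2 encode the glutamate decarboxylases GAD67 and GAD65, which convert glutamate to GABA, and Slc32a1 encodes VGAT, the transporter that loads GABA into synaptic vesicles. Slc12a2 encodes NKCC1, a cotransporter that carries chloride into the cell, and Slc12a5 encodes KCC2, which carries chloride out and is best known from neurons. In immature neurons NKCC1 activity is known to keep intracellular chloride high, so that GABA can depolarize the cell, and rising KCC2 during maturation makes GABA hyperpolarizing.

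The data come from a study of the methyltransferase Dot1l, which was deleted in mouse embryos by Emx1-Cre, a driver active in the dorsal telencephalon. Both libraries used here, WT replicate 1 and WT replicate 6, are labelled WT and came from papain-dissociated E16.5 dorsal telencephalon, which the labels also call brain hemispheres. Knockout samples were not analysed here. Nothing in the labels says whether the embryos shared a litter or what the control genotype carries beyond "WT".

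The libraries held 14136 and 13046 called cells with a median of 2967 and 3381.5 UMIs (unique molecular identifiers, 1 per captured mRNA molecule). Limits of 1500 to 60000 UMIs per cell and below 10% of UMIs from mitochondrial genes left 8139 and 8209 cells, and 920 and 857 of these with the highest doublet scores were removed. The libraries shared 59 cell barcodes and differed in the sex-linked genes Xist and Ddx3y.

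Classes were gated from marker genes that include none of the 5 genes. A cell entered a class when at least 2 genes of its list had a UMI and no other list reached more than 50% of that number; class names below stand for these gates. The gates gave 2775 inhibitory neurons (Dlx1, Dlx2, Dlx5, Dlx6, Dlx6os1, Sp9, Lhx6 and Nxph1), 442 cycling Dlx-gated cells, 5969 excitatory neurons, 1048 radial glia (RGCs) and 75 intermediate progenitors (IPCs). They further gave 76 Cajal-Retzius cells, 91 endothelial cells, 159 mural cells, 125 fibroblasts, 120 microglia and 158 erythroid cells. Cells that met no gate made up 25.3% and 23.1% of the libraries. Markers kept out of the gates were highest in their own class, except Rprm among the excitatory markers and Hes1 and Nes among the RGC markers.

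Some of these gates were narrow or loose. The IPC gate kept 75 of the 1883 cells with at least 2 IPC genes, so a wider gate with 532 and 565 cells was added after the data had been seen. It asked for at least 2 IPC genes including Eomes and did not count the excitatory and RGC lists against a cell. Its cells can therefore carry markers of those classes, and they were taken out of them, which left 518 and 485 RGCs in its fits. Of the microglia, 33.3% sat at the minimum of 2 marker genes, and of the erythroid cells 52.5%. Counts were summed per library and class and are given as UMIs per 1000000 UMIs of the class (CPM), with the mean ± SD over the 2 libraries.

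In mm10 coordinates, as RefSeq gives them for GRCm38.p6, Gad1 spans chr2:70561303-70602014, Gad2 chr2:22621015-22693877, Slc32a1 chr2:158607260-158615747 and Slc12a5 chr2:164960846-164999731. Because Gad1, Gad2 and Slc32a1 were highest in the same classes, their promoters are shown, each with 250 bases before and 50 after a transcript start that RefSeq lists for the gene, on the plus strand. In these 3 genes that start lies inside the span given above, downstream of its first base. They lie at chr2:70561879-70562178, chr2:22622077-22622376 and chr2:158610508-158610807. Capitals mark the matches to any of 5 short motifs, searched on both strands. The homeodomain core was spelled TAATTA. The GC box, bound by Sp1, was spelled GGGCGG. For the TATA box the letters were TATAAA. The E-box of the NeuroD type was read as CAGATG. The EGR site, which can overlap the GC box, was GCGGGGGCG.
Gad1: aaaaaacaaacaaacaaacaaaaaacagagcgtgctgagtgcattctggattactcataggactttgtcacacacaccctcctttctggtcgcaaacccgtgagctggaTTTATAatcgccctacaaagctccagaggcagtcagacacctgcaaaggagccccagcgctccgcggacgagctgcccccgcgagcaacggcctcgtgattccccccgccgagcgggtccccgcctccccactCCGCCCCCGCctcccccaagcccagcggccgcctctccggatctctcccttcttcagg
Gad2: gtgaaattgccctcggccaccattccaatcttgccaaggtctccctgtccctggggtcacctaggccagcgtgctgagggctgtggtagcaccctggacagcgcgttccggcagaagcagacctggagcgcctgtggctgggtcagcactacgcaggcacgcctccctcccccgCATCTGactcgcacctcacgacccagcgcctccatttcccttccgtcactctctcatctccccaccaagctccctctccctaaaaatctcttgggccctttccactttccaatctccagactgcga
Slc32a1: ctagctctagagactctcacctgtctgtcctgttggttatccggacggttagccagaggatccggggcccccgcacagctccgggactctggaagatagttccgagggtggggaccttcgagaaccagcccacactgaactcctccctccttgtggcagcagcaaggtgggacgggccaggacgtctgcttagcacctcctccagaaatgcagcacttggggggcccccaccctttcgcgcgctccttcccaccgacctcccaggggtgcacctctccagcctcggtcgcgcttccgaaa
No motif was shared by these 3 windows. In Gad1 the TATA box letters began at base -141, and a GC box at -8 overlapped an EGR site at -7, all on the reverse strand. In Gad2 the E-box letters began at -76, also in reverse, and Slc32a1 held no match. Of 32851 promoters of the same length, 35.7% held the GC box letters, 17.2% the E-box, 13.6% the TATA box, 5.29% the homeodomain core and 2.91% the EGR site. The windows were GC-rich, at 60.0%, 61.3% and 63.3%, against a median of 52.7% over all promoters. A match to letters describes the window and does not show binding.

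Before the single genes, the number of the 5 that differed is given for each pair of classes, beside the share of all tested genes that did so. A gene was called at an adjusted p under 0.05 in edgeR's quasi-likelihood test on the 2 sums per class. Inhibitory against excitatory neurons gave 4 calls of 5, all higher in inhibitory neurons, where 42.3% of all tested genes were called, 21.0% higher and 21.3% lower. Against RGCs, inhibitory neurons gave 5 calls of 5, 4 higher and 1 lower, on a background of 67.0%. Excitatory neurons against RGCs gave 3 calls of 5, all lower, on a background of 65.6%, with 32.9% higher and 32.7% lower. That near-even split depended on scaling, since 39.3% of the calls were higher with library sizes alone against 50.1% with TMM.

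Cycling Dlx-gated cells against inhibitory neurons gave 3 calls of 5 (background 35.3%), striatal-type against MGE-type inhibitory neurons 1 of 5 (9.44%) and deep-layer against newborn migrating excitatory neurons 1 of 5 (16.5%). Cajal-Retzius cells against excitatory neurons gave 1 of 5 (25.3%). CGE-type against MGE-type inhibitory neurons gave 0 calls of 5 in edgeR (4.63%), 0 at an unadjusted p under 0.05 and 0 in DESeq2.

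For IPCs, inhibitory neurons against them gave 4 calls of 5 (27.6%), and IPCs against RGCs gave 1 of the 3 genes that passed the filter on low counts (15.0%). Excitatory neurons against IPCs gave 0 calls of 5 in edgeR (19.8%), 1 at an unadjusted p under 0.05 and 0 in DESeq2. Among the non-neural classes, the comparison with RGCs gave 4 calls of 4 tested genes in mural cells (47.0%), 3 of 3 in fibroblasts (47.0%), 1 of 3 in endothelial cells (51.2%) and 3 of 4 in microglia (22.5%). A gene that failed the filter was low in both classes, so these shares are not over all 5 genes.

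**Figure D1:**
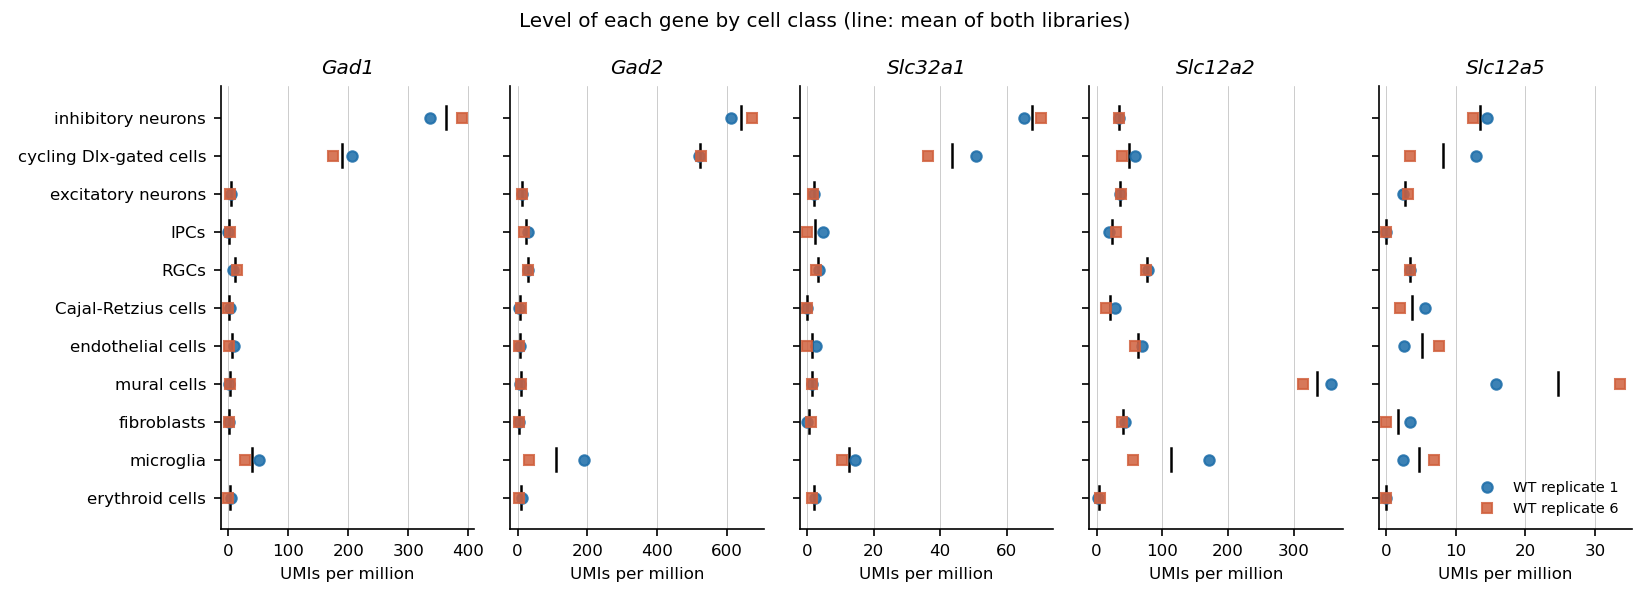
Level of each gene in UMIs per 1000000 (horizontal axes, a separate scale per gene) by cell class, with 1 point per WT library and a line at their mean. Gad1, Gad2 and Slc32a1 were highest in inhibitory neurons and cycling Dlx-gated cells, while Slc12a2 and Slc12a5 had their highest mean in mural cells.

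Gad1 was a gene of the Dlx-gated classes. Its level in inhibitory neurons was 337 CPM in WT replicate 1 and 390 in WT replicate 6, a mean of 364 ± 37.8 (SD, n = 2), and cycling Dlx-gated cells followed at 206 and 174. Excitatory neurons had 4.20 and 3.57 CPM, a ratio of means of 93.6, and RGCs 8.20 and 14.8. Both libraries of each Dlx-gated class lay far above those of the other classes. On the log2 scale, inhibitory neurons exceeded excitatory neurons by 6.47 (SE 0.12, edgeR adjusted p = 3.73e-08) and RGCs by 5.12 (SE 0.20, adjusted p = 9.20e-08).

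Gad2 followed the same order. Inhibitory neurons had 611 and 672 CPM and cycling Dlx-gated cells 521 and 525, against 12.4 and 12.1 in excitatory neurons and 28.5 and 28.6 in RGCs. The Dlx-gated classes again lay far above the others in both libraries. Inhibitory neurons exceeded excitatory neurons by a log2 difference of 5.63 (SE 0.09, edgeR adjusted p = 3.00e-08) and RGCs by 4.61 (SE 0.11, adjusted p = 2.24e-08).

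Slc32a1, the vesicular transporter gene, reached 65.1 and 70.5 CPM in inhibitory neurons and 50.8 and 36.4 in cycling Dlx-gated cells, and 2.20 and 1.71 in excitatory neurons. The inhibitory libraries were the highest, and those of excitatory neurons lay far below both Dlx-gated classes. The log2 difference was 5.03 between inhibitory and excitatory neurons (SE 0.13, edgeR adjusted p = 1.42e-07) and 4.52 between inhibitory neurons and RGCs (SE 0.17, adjusted p = 8.23e-08). Cajal-Retzius cells, a transient early-born neuron type, had 0 Slc32a1 UMIs in 76 cells, with 1 UMI of Gad1 and 6 of Gad2.

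IPCs had 28.9 and 18.2 CPM of Gad2, and inhibitory neurons exceeded them by 4.96 on the log2 scale (SE 0.27, edgeR adjusted p = 2.41e-11). Gad1 and Slc32a1 had 1 UMI each in IPCs, too few for a fold, and both were called (adjusted p = 6.26e-11 and 2.04e-06). With the wider gate Gad2 was 17.3 and 23.4 CPM in IPCs, and excitatory neurons lay below them by a log2 difference of -0.67 (adjusted p = 0.00927). IPCs of the wider gate lay below RGCs in Gad1 by -1.67 (adjusted p = 0.0269).

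Together, the Dlx-gated classes held 93.8% of the Gad1 UMIs of all gated cells, 90.6% of those of Gad2 and 87.3% of those of Slc32a1. These shares depend on how many cells each class contributed.

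**Figure D2:**
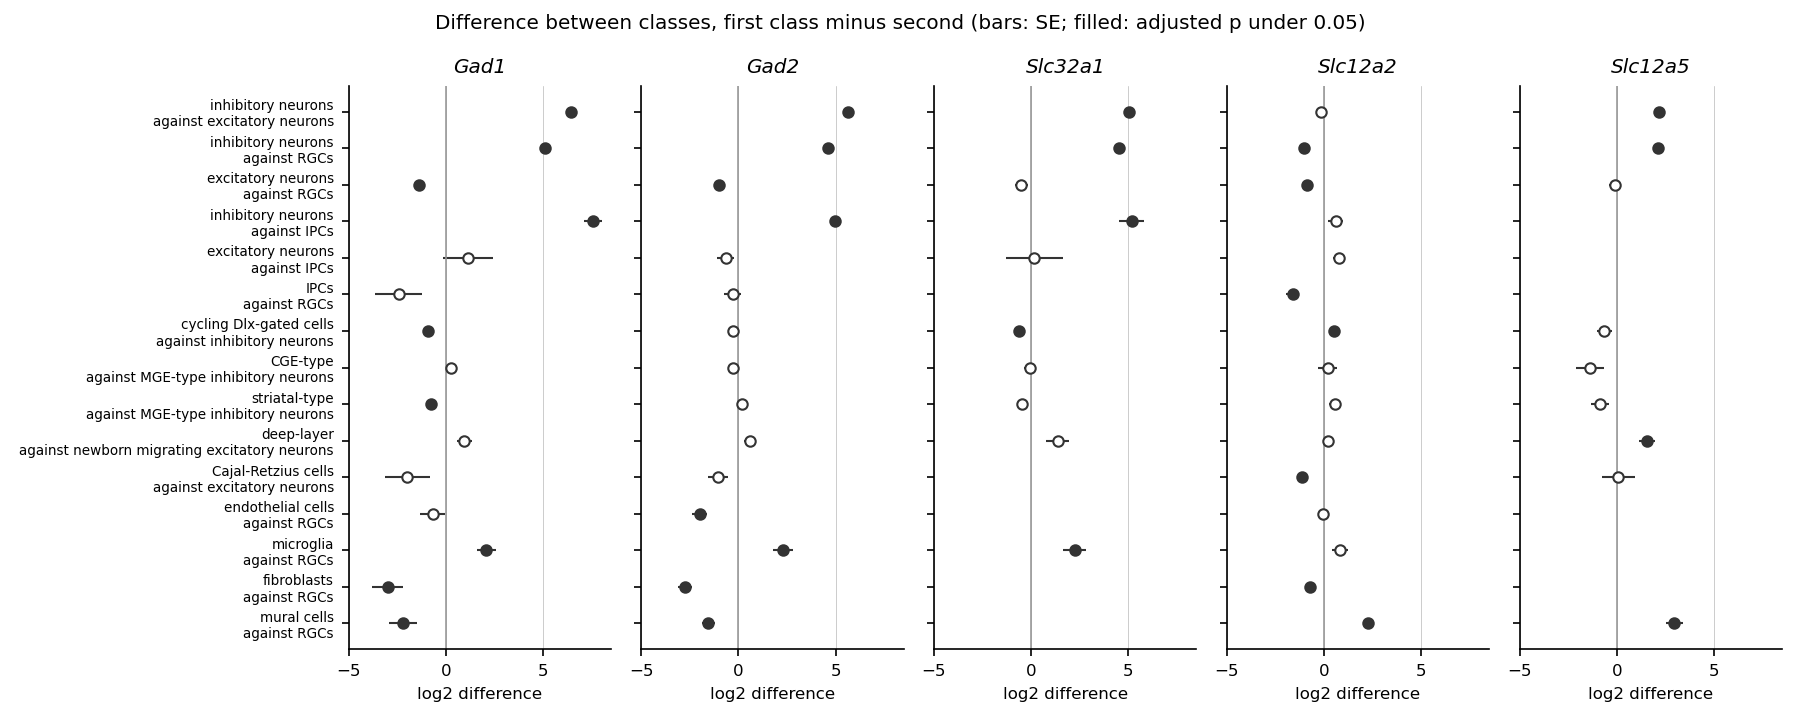
Log2 difference between the first-named and the second-named class for each gene, with SE from edgeR's quasi-likelihood fit; filled points had an adjusted p under 0.05. Gad1, Gad2 and Slc32a1 were higher in inhibitory neurons than in excitatory neurons, IPCs and RGCs, and Slc12a2 was lower in both neuron classes than in RGCs. Genes not tested or at 0 in a class are left out.

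Single cells were compared after thinning each to 2000 UMIs, since the median inhibitory neuron held 3967 and 3658 UMIs and the median excitatory neuron 8158 and 7448.5. Cells with fewer UMIs than that were left out, so the thinned shares cover 1182 and 1214 inhibitory and 2715 and 3066 excitatory neurons. At least 1 Gad1 UMI was then found in 50.1% ± 3.48 (SD, n = 2) of inhibitory neurons, a Gad2 UMI in 64.4% ± 4.27 and an Slc32a1 UMI in 12.3% ± 1.30. Without thinning the shares over both libraries were 68.6%, 79.8% and 24.7%. Of the thinned inhibitory neurons, 16.5% showed none of the 3 genes, 45.1% showed 1 of them, 33.5% showed 2 and 4.87% all 3. A cell without a UMI at this depth is not shown to lack the gene.

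Erythroid cells, which should lack these genes, were taken as the background of free RNA, at median depths of 5576 and 5432 UMIs. This background class was loosely gated, with 52.5% of its cells at the minimum of 2 marker genes. Its inhibitory gate list summed to 69.1 and 63.4 CPM, above the 37.9 and 33.3 of excitatory neurons. Whether free RNA or mixed cells gave these UMIs was not tested. The gate rule caps how many genes of this list a cell of another class may show, so such sums are in part set by it. Over both libraries, 1 of 152 thinned erythroid cells had a Gad2 UMI, or 0.658% (95% Wilson interval 0.116 to 3.63%, counting error only). The Gad2 share was 2.72% in excitatory neurons (2.33 to 3.17%), inside that interval and so not separated from background, and by level 12.4 and 12.1 CPM stood against 11.9 and 4.76 in erythroid cells. In RGCs the Gad2 share was 5.83% (4.54 to 7.46%), above the erythroid interval. It was not above the mean share in microglia, 19.6% ± 20.3 (SD, n = 2), a class whose libraries differed widely. Gad1 was found in 0 of 152 erythroid cells (interval up to 2.46%), against 0.986% of excitatory neurons, below that bound, and 2.51% of RGCs (1.71 to 3.68%).

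**Figure D3:**
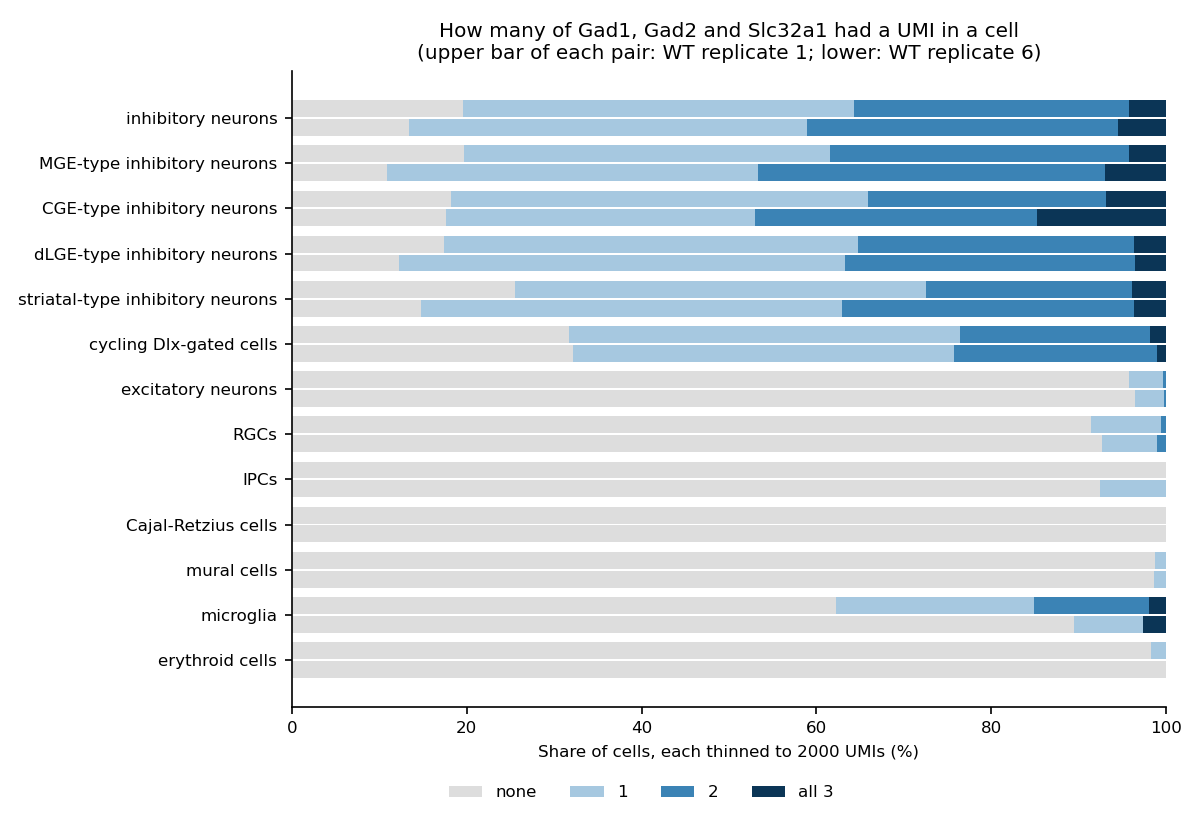
Share of cells (horizontal axis, %, after thinning each cell to 2000 UMIs) with a UMI of none, 1, 2 or all 3 of Gad1, Gad2 and Slc32a1, by class, with 1 bar per WT library. In inhibitory neurons 16.5% of cells on average showed none, against 96.1% of excitatory neurons.

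Within the RGCs, the Gad genes were higher in cells outside the cell cycle. Non-cycling RGCs had 38.9 and 46.3 CPM of Gad2, and cycling RGCs 20.4 and 14.7. Gad1 stood at 13.8 and 27.0 against 3.85 and 5.20. The libraries did not overlap for either gene, and no test of this split was planned. All 8 genes of the inhibitory gate had UMIs in RGCs, with a summed level of 135 and 167 CPM, compared with 37.9 and 33.3 in excitatory neurons and 3598 and 4062 in inhibitory neurons. Inhibitory neurons were chosen by these genes, and the gate rule capped them in the other classes, so this order is in part set by the gates. The part of these Dlx transcripts in the Gad levels of RGCs was not tested. Between RGCs and excitatory neurons Gad1 fell by 1.35 on the log2 scale (SE 0.27, edgeR adjusted p = 0.00173) and Gad2 fell by 1.03 (SE 0.11, adjusted p = 3.64e-05). For Slc32a1 the difference of -0.52 did not pass (adjusted p = 0.205).

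Cycling Dlx-gated cells, which the gate separates by genes of mitosis, had less Gad1 and Slc32a1 than inhibitory neurons. Gad1 fell by 0.93 on the log2 scale (SE 0.14, edgeR adjusted p = 0.000598) and Slc32a1 fell by 0.62 (SE 0.16, adjusted p = 0.0142). Gad2 was 523 ± 3.08 against 641 ± 42.7 CPM, a log2 difference of -0.29 that did not pass (adjusted p = 0.0923). Over the alternative fits of edgeR and DESeq2 it ranged from -0.49 to -0.26, with an adjusted p from 0.0404 to 0.197, so whether Gad2 passed depended on the setting. The Slc32a1 call was lost in DESeq2 (adjusted p = 0.11).

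Among the inhibitory neurons, Gad1 separated striatal-type cells, the projection neurons marked by Ebf1, Isl1, Six3, Drd2 and others, from MGE-type interneurons marked by Lhx6, Nxph1, Sox6 and others. Striatal-type cells had 210 and 261 CPM of Gad1 and MGE-type cells 359 and 415. The libraries did not overlap, and the log2 difference was -0.76 (SE 0.17, edgeR adjusted p = 0.0213). With a gate of 3 marker genes the difference was -0.67 and the adjusted p = 0.0595. Gad2 showed 726 ± 145 against 620 ± 27.9 CPM, with overlapping libraries (adjusted p = 0.591).

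CGE-type interneurons, marked by Prox1, Adarb2, Nr2f2, Npas1 and Htr3a, had 401 and 533 CPM of Gad1 and 509 and 506 of Gad2. The dLGE-type neurons, marked by Tshz1, Pbx3, Meis2, Etv1 and Sp8, had 349 and 435 of Gad1 and 566 and 632 of Gad2. Neither Gad gene passed between CGE-type and MGE-type cells, with log2 differences of 0.29 (SE 0.19) for Gad1 and -0.28 (SE 0.17) for Gad2. The CGE-type sums came from 56 and 74 cells.

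The decarboxylase transcripts stood in unequal proportion across classes. Since the genes may be captured with unequal efficiency, the number of Gad1 UMIs per Gad2 UMI is read only between classes and is given without a test. It was 0.921 ± 0.188 (SD, n = 2) in CGE-type, 0.653 ± 0.0512 in dLGE-type and 0.623 ± 0.0359 in MGE-type cells, but 0.326 ± 0.0154 in striatal-type cells. Cycling Dlx-gated cells had 0.395 and 0.332 in the libraries and excitatory neurons 0.339 and 0.295. Striatal-type libraries lay below those of the other 3 named subclasses, whereas RGCs ranged from 0.288 to 0.517.

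**Figure D4:**
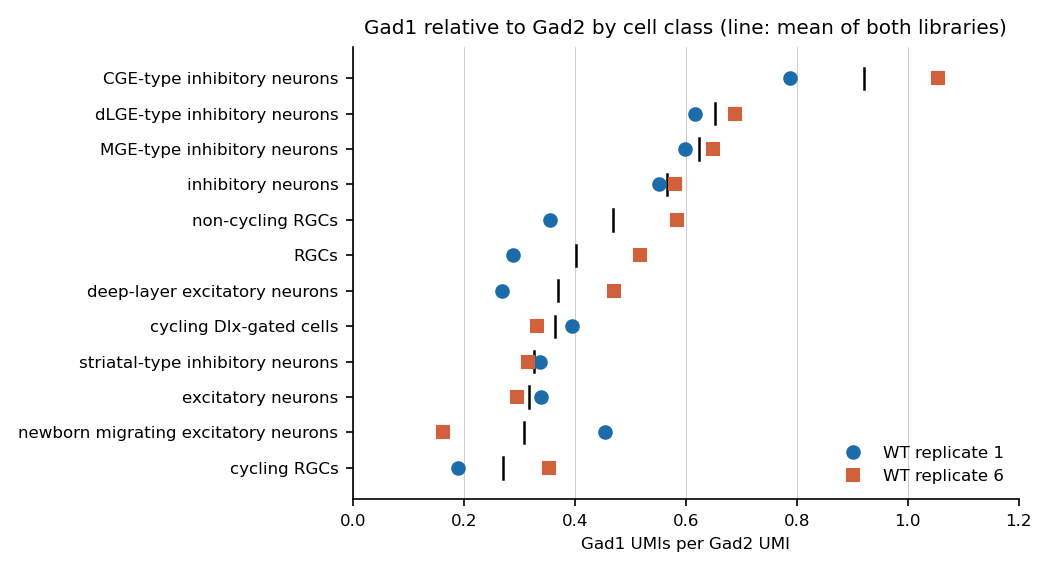
Gad1 UMIs per Gad2 UMI (horizontal axis) by class, with 1 point per WT library and a line at the mean; classes with under 20 Gad2 UMIs in a library are left out. CGE-type inhibitory neurons were highest at 0.921, and striatal-type inhibitory neurons at 0.326 lay below the other inhibitory subclasses.

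The gate of microglia, the immune cells of the brain, gave an exception to the pattern of the GABA genes. Gad2 was 189 CPM in WT replicate 1 and 31.2 in WT replicate 6, Gad1 50.8 and 27.7, and Slc32a1 14.5 and 10.4. WT replicate 1 was the higher library for each. Against RGCs, Gad1 rose by a log2 difference of 2.08 (edgeR adjusted p = 0.0208), Gad2 by 2.28 (0.0214) and Slc32a1 by 2.23 (0.0388). None of the 3 calls held with a gate of 3 marker genes, where Gad2 was at 14.7 ± 10.0 CPM and differed by 0.14 (adjusted p = 0.866). Without WT replicate 1 the Gad2 difference was 0.20. With the library as a replicate block, Slc32a1 lost its call (log2 2.20, adjusted p = 0.0545). The inhibitory gate list, which the gate rule caps outside the Dlx-gated classes, summed to 169 and 156 CPM in these microglia. Of its 8 genes 7 and 5 were detected, and its part in the result was not tested.

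The remaining non-neural classes had little. Gad2 was 8.77 ± 1.19 CPM in mural cells, 5.86 ± 2.94 in endothelial cells and 3.56 ± 0.159 in fibroblasts, against 8.33 ± 5.06 in erythroid cells. Each of the first 3 lay below RGCs, by log2 differences of -1.55, -2.0 and -2.76 (edgeR adjusted p = 0.00141, 0.00128 and 0.000206). The mural difference lost its call with a gate of 3 marker genes (-0.80, adjusted p = 0.0981). Gad1 also fell in fibroblasts and mural cells, from sums of 2 and 3 UMIs, and both calls were lost in DESeq2 (adjusted p = 0.0636 and 0.135).

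The chloride transporters had another distribution, and the importer was strongest outside the neurons. The gene of NKCC1, Slc12a2, lies on chromosome 18. It reached 357 and 314 CPM in mural cells, the pericytes and smooth muscle cells of vessels, and 78.4 and 75.9 in RGCs. It was 68.8 and 58.6 in endothelial cells and 42.6 and 38.0 in fibroblasts. Both mural libraries stood above every other class. The mural level was 4.35 times that of RGCs, or 2.28 higher in log2 (SE 0.13, edgeR adjusted p = 4.93e-10). Fibroblasts fell by 0.71 below RGCs (adjusted p = 0.00728), a call that was lost with doublets kept (-0.11, adjusted p = 0.567), with the stricter cell filter and in DESeq2. Endothelial cells did not differ detectably (-0.07, SE 0.18, adjusted p = 0.776).

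Per cell at 2000 UMIs, 45.2% of mural cells had an Slc12a2 UMI (95% Wilson interval 37.5 to 53.0%), against 15.2% of RGCs (13.1 to 17.5%) and 0.658% of erythroid cells (0.116 to 3.63%). Without thinning the mural and RGC shares were 82.4% and 37.8%. Both thinned intervals lay above the erythroid background.

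Slc12a2 was lower in both neuron classes than in RGCs. Excitatory neurons had 36.1 and 36.4 CPM and inhibitory neurons 34.3 and 34.1, both well below the RGC libraries. The log2 difference from RGCs was -0.90 for excitatory neurons (SE 0.08, edgeR adjusted p = 8.09e-06) and -1.05 for inhibitory neurons (SE 0.09, adjusted p = 1.36e-05). Between the neuron classes the difference was -0.16 (SE 0.08, adjusted p = 0.139). Their libraries did not overlap but lay close together.

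Cycling RGCs had 76.2 and 68.4 CPM and non-cycling RGCs 81.2 and 85.4, a small gap that was not tested. IPCs, which arise from RGCs and give rise to excitatory neurons, had 19.2 and 29.1 CPM and differed from RGCs by -1.61 in log2 (SE 0.33, adjusted p = 0.00208). Under the wider gate they had 41.3 and 33.6 CPM, and the difference was -0.97 (adjusted p = 0.000446). Excitatory neurons and IPCs did not differ detectably under the narrow gate (0.79, adjusted p = 0.134) or the wider one (0.03, adjusted p = 0.848).

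Cycling Dlx-gated cells had 58.1 and 39.2 CPM of Slc12a2, above inhibitory neurons in both libraries, by a log2 difference of 0.53 (SE 0.18, edgeR adjusted p = 0.0480). This call sat at the threshold and was lost in DESeq2 (adjusted p = 0.257), with all classes in 1 fit (0.311) and with doublets kept (0.0685). Cajal-Retzius cells had 27.9 and 13.8 CPM from 10 and 7 UMIs, below excitatory neurons by a log2 difference of -1.12 (adjusted p = 0.0160). That call was lost without TMM scaling (-0.88, adjusted p = 0.0509), and the difference was -0.30 without WT replicate 6.

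Among inhibitory subclasses, Slc12a2 was 29.0 ± 2.90 CPM in MGE-type, 33.9 ± 4.0 in dLGE-type and 44.7 ± 0.851 in striatal-type cells. Striatal-type and MGE-type libraries did not overlap, yet the log2 difference of 0.57 (SE 0.30) did not pass (adjusted p = 0.302). In microglia Slc12a2 was 172 CPM in WT replicate 1 and 55.5 in WT replicate 6, on both sides of the RGC level, and did not pass (adjusted p = 0.184).

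The exporter gene Slc12a5 gave 412 UMIs over all gated cells. Inhibitory neurons had 14.5 and 12.5 CPM from 93 and 74 UMIs, excitatory neurons 2.45 and 3.14, and RGCs 3.45 and 3.39. Inhibitory libraries lay above both other classes. The mean was 4.84 times that of excitatory neurons, with a log2 difference of 2.20 (SE 0.20, edgeR adjusted p = 8.19e-05), and the difference from RGCs was 2.10 (SE 0.25, adjusted p = 8.30e-05). Excitatory neurons and RGCs differed by -0.10 (SE 0.30, adjusted p = 0.781), which leaves a difference of either sign open at this depth.

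IPCs had 0 Slc12a5 UMIs in 75 cells. Taken against a floor of 3 counts over both IPC sums, or 6.21 CPM, inhibitory neurons were at least 2.18-fold higher (edgeR adjusted p = 0.00995). With the wider gate IPCs had 11 and 9 UMIs, 1.94 ± 0.244 CPM, and inhibitory neurons exceeded them by 2.83 on the log2 scale (edgeR adjusted p = 4.11e-05). The difference between excitatory neurons and these IPCs was 0.64 (adjusted p = 0.138).

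MGE-type cells carried the most Slc12a5 among the neurons, at 20.5 and 22.5 CPM, and held 91 of the 167 UMIs of inhibitory neurons. Striatal-type cells had 13.6 and 10.4 CPM, dLGE-type cells 7.77 and 6.07, and CGE-type cells 0 and 15.6, the last from 4 UMIs. MGE-type libraries lay above those of all 3, but the test did not pass for striatal-type (-0.88, SE 0.46, adjusted p = 0.312) or CGE-type cells (-1.37, SE 0.72, adjusted p = 0.453). The dLGE-type cells were in no test.

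In the excitatory lineage, deep-layer neurons, marked by Fezf2, Bcl11b, Tle4 and others, had 4.64 and 5.58 CPM. Newborn migrating neurons, marked by Neurod1, Unc5d, Sema3c and others, had 2.27 and 1.25. The libraries did not overlap, and the log2 difference was 1.54 (SE 0.42, edgeR adjusted p = 0.0342). It rests on 11 UMIs in the newborn cells. The call was lost in DESeq2 (adjusted p = 0.296), with all classes in 1 fit (0.0938) and with the stricter cell filter (0.0599). For Slc12a2 the same pair differed by 0.22 (SE 0.12, adjusted p = 0.243). Gad1 and Gad2 were called between them only with doublets kept (log2 1.54 and 1.26, adjusted p = 0.0190 and 0.00366). Excitatory neurons of neither subclass had 1.30 and 2.20 CPM of Slc12a5.

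Among the 11 main classes mural cells had the highest mean for this gene as well, with 15.9 and 33.6 CPM from 12 and 21 UMIs, a range that overlapped the MGE-type libraries. They lay above RGCs by a log2 difference of 2.95 (SE 0.43, edgeR adjusted p = 3.94e-05). After thinning, 4.52% of mural cells had an Slc12a5 UMI (95% Wilson interval 2.20 to 9.03%), compared with 2.21% of inhibitory neurons (1.70 to 2.88%). Without thinning these shares were 15.7% and 5.44%. The background was 0 of 152 erythroid cells (interval up to 2.46%), and neither the mural nor the inhibitory interval lay wholly above that bound. Both intervals lay above those of RGCs (0.402%, 0.156 to 1.03%) and excitatory neurons (0.675%, 0.494 to 0.921%). The mural level of the inhibitory gate list was 33.0 and 19.2 CPM, of the order of that in excitatory neurons, though the gate rule caps this list in both classes.

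The balance of the pair was taken as the share of Slc12a5 among the UMIs of both transporters, read between classes only. Inhibitory neurons had 29.7% in WT replicate 1 (exact 95% interval 24.7 to 35.1%) and 26.9% in WT replicate 6 (21.8 to 32.6%). Excitatory neurons had 6.36% (4.88 to 8.11%) and 7.92% (6.32 to 9.78%), and RGCs 4.22% (2.43 to 6.77%) and 4.28% (2.36 to 7.08%). The inhibitory interval lay apart from those of both other classes, while the intervals of excitatory neurons and RGCs overlapped.

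As log2 of Slc12a5 over Slc12a2, with 0.5 added to each sum, the balance was -1.34 ± 0.14 in inhibitory neurons, -3.70 ± 0.24 in excitatory neurons and -4.45 ± 0.02 in RGCs (SD, n = 2). Inhibitory neurons exceeded RGCs by 3.22 and 3.0 in the libraries, and excitatory neurons by 2.63 and 2.09. Excitatory neurons exceeded RGCs by 0.59 and 0.90. In this pair Slc12a2 was lower in excitatory neurons (log2 of CPM -1.12 and -1.06 in the libraries), and Slc12a5 was not higher (-0.53 and -0.16). Each balance difference had the same sign in both libraries. The exact permutation test over 2 against 2 sums cannot go below p = 0.333, two-sided, which is the value of all 9 class pairs compared.

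In the inhibitory lineage the balance was -2.14 and -3.36 in cycling Dlx-gated cells, below inhibitory neurons in both libraries. MGE-type cells were highest of all classes, at -0.59 and -0.26, which corresponds to 39.8% and 45.5% Slc12a5. Striatal-type cells stood at -1.58 and -1.95, dLGE-type cells at -2.19 and -2.29 and CGE-type cells at -2.32 and -1.69. The MGE-type values lay above those of the other 3, but few UMIs stood behind some of these. The CGE-type value of WT replicate 1 came from 2 Slc12a2 UMIs and none of Slc12a5, so the added 0.5 set it. The exact intervals of the Slc12a5 share in CGE-type cells of WT replicate 6 (6.41 to 47.6%) and striatal-type cells of WT replicate 1 (6.81 to 49.9%) overlapped those of MGE-type cells (30.7 to 49.5% and 35.6 to 55.8%).

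In the excitatory lineage, deep-layer neurons stood at -3.03 and -2.68, newborn migrating neurons at -3.76 and -4.48, non-cycling RGCs at -3.98 and -3.89 and cycling RGCs at -4.93 and -5.14. Deep-layer neurons were the highest and cycling RGCs the lowest in both libraries. Newborn neurons and non-cycling RGCs overlapped. Excitatory neurons of neither subclass, 1616 of the 2825 in WT replicate 1, stood at -4.41 ± 0.46 (SD, n = 2). That is close to the -4.45 ± 0.02 of all RGCs. The IPC value, from 4 and 8 UMIs of Slc12a2 and none of Slc12a5, was set by the added 0.5, and with the wider gate the balance exceeded that of RGCs by 0.25. Mural cells, high in both genes, had 4.26% and 9.68% Slc12a5.

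**Figure D5:**
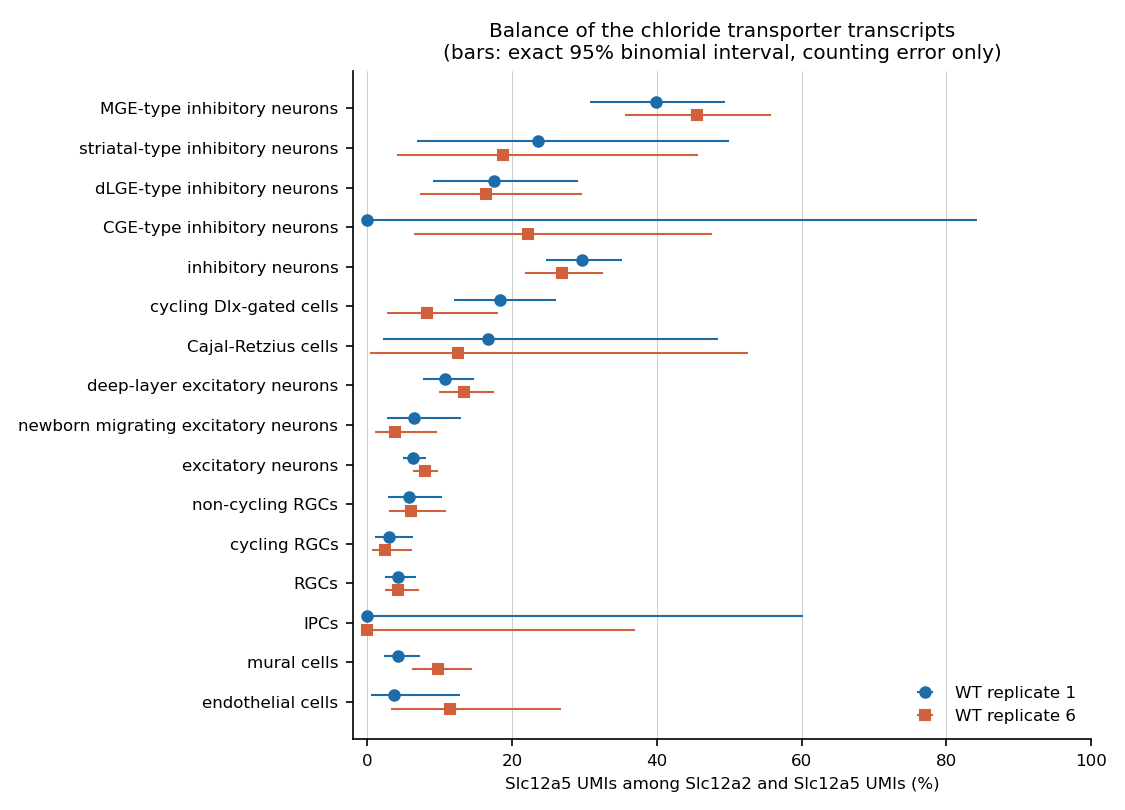
Slc12a5 as a share of the UMIs of Slc12a2 and Slc12a5 (horizontal axis, %) by class, with 1 point per WT library and exact 95% binomial intervals for counting error only. MGE-type inhibitory neurons were highest at 39.8% and 45.5%, and RGCs had 4.22% and 4.28%.

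Both transporter transcripts were seldom seen in the same cell. After thinning, 0.208% of inhibitory neurons, 0.0673% of excitatory neurons and 0% of RGCs had a UMI of both. Of inhibitory neurons 6.35% had Slc12a2 alone and 2.0% Slc12a5 alone, and 91.4% neither. At this depth the balance describes classes and not cells.

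Other genes of GABA handling and chloride transport were taken from 3 lists of 33 genes in all. Between inhibitory and excitatory neurons 28 were tested, of which 3 were higher and 5 lower, with a median log2 difference of -0.03 against -0.02 over all genes. Of all tested genes, 21.0% were called higher and 21.3% lower. In the list of GABA breakdown, uptake and precursor supply, 2 of 9 tested genes were higher and 3 lower (median 0.07). Abat, the transaminase that breaks GABA down, was 64.1 ± 2.09 against 5.75 ± 0.232, a log2 difference of 3.40 (edgeR adjusted p = 1.66e-07).

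Slc6a11, the GABA transporter GAT3, was lower in inhibitory neurons by a log2 difference of -1.60 (adjusted p = 0.000859). Slc38a1, a glutamine transporter, differed by -0.35 (adjusted p = 0.00559). Of the other chloride carriers and channels, 0 of 9 were higher and 2 lower (median -0.08), led by Slc4a10, a sodium-bicarbonate transporter, at 6.12 ± 1.47 against 49.4 ± 3.61 CPM (log2 -3.08, adjusted p = 2.48e-06). Of the regulators of NKCC1 and KCC2, 1 of 10 was higher, Ntrk2, the BDNF receptor TrkB, by 0.85 (adjusted p = 5.45e-05), and 0 were lower (median -0.03).

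From RGCs to excitatory neurons, 11 of 29 tested genes of these lists were higher and 14 lower, with a median of -0.15 against 0.03 over all genes. The shares over all tested genes were 32.9% higher and 32.7% lower. In the GABA list 3 of 10 rose and 7 fell (median -1.80). Slc6a11 fell by 3.03 (edgeR adjusted p = 2.03e-08), Maob, monoamine oxidase B, by 2.97 from low counts (adjusted p = 0.00220) and Abat by 2.96 (adjusted p = 4.88e-08). Slc6a6, the taurine transporter, rose by 2.38 (adjusted p = 1.14e-07).

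Among the other chloride carriers 4 of 9 rose and 2 fell, with Slc4a10 higher by 5.35 (edgeR adjusted p = 4.80e-08) and Slc4a8, another bicarbonate transporter, by 1.73 (adjusted p = 5.07e-06). Of the regulators 4 of 10 rose and 5 fell. Ckb, brain creatine kinase, fell by 2.33 (adjusted p = 5.62e-08). Between cycling Dlx-gated cells and inhibitory neurons 4 of 27 tested genes were higher and 11 lower, where 2258 of all 12827 tested genes were higher and 2274 lower. Between deep-layer and newborn migrating neurons 7 of 27 were higher and 1 lower, against 1320 and 810 of all 12920.

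Genes with the most similar pattern were sought over the 22 sums of 11 classes, among 11387 genes, by Pearson's r of log2(CPM + 10). The sums share libraries and lineages, so r is a description. Gad1 was closest to Slc32a1 (r = 0.982), B020031H02Rik (0.980) and Gm14204 (0.977). Gad2 was closest to Gm14204 (0.981), Slc32a1 (0.970) and Gm38505 (0.968), with Gad1 at 0.967. Slc32a1 was closest to Gm14204 (0.984), Gad1 and B020031H02Rik (0.974). Dlx6os1, itself in the inhibitory gate, was among the 5 closest to Gad1 (0.972) and to Slc32a1 (0.974).

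The transporters had other neighbours. Slc12a2 was closest to Atp7a (r = 0.908), Inpp5b (0.895), Tbc1d1 (0.887), Ppp1r12c (0.881) and Rasa3 (0.873). Slc12a5 was closest to Zmat4 (0.842), Kcnrg (0.822), Filip1l (0.816), 4930447N08Rik (0.814) and Dgkg (0.804). The transporters had an r of 0.649 with each other, and mural cells had the highest mean of both, 335 CPM of Slc12a2 and 24.7 of Slc12a5. Inhibitory neurons (34.2 and 13.5 CPM) and RGCs (77.1 and 3.42) stood in opposite order for the genes. The part of the mural sums in this r was not tested. Slc12a5 had an r of 0.389 with Gad1, and Slc12a2 one of 0.0592.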

How the data were processed

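Dissociated cells of the dorsal telencephalon from E16.5 WT embryos were profiled with 10x Genomics single-cell 3' chemistry. The files hold unnormalized UMI counts for each gene in each cell, deposited by the authors and made with Cell Ranger 7.0.0 on mm10 per the submitters' processing notes; the annotation and the treatment of intronic reads are not given in the sources used here. Free RNA was not removed, and the shallowest called cell had 500 UMIs.

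Doublets were scored per library in the manner of Scrublet (2 simulated doublets per cell, 2000 variable genes, 30 principal components), and cells were left out at a rate of 0.8% per 1000 called cells. Gates needed 2 marker genes (Cajal-Retzius cells 3). Cycling cells were split off by 10 mitosis genes. Sums per library and class were tested with edgeR 4.0.16 in R 4.3.3 (glmQLFit and glmQLFTest, two-sided, TMM, filterByExpr, Benjamini-Hochberg over all genes tested), fitting 1 pair of classes at a time, each with at least 20 cells per library. The sums are 2 per class, 1 per library. The p-values set the difference between classes against the spread between these libraries, which edgeR estimates with information from all tested genes. Each library supplied cells of both classes, so its number pairs the sums; deviations of same-library sums from class means had r of 0.067 to 0.332 over 15 comparisons, and a fit with the library as replicate block was an alternative. Other alternatives were DESeq2 1.42.0, library sizes without TMM, no filter on low counts, all classes in 1 fit, a gate of 3 marker genes, doublets kept, 3000 to 30000 UMIs with under 5% mitochondrial UMIs, 1500 UMIs for thinning and each library left out. The test was tested on simulated data with 200 changed genes. Wilson and exact intervals cover counting error only.

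Named genes were the 5 members in every comparison, the 4 largest rises and 4 largest falls among called list genes for inhibitory against excitatory neurons and excitatory neurons against RGCs, and the 5 most similar genes per member at 20 CPM or more in a class. Some genes that this rule names are not reported here. The members, lists and tests were chosen with earlier results of these data known. Promoter sequences and coordinates were taken from RefSeq (GRCm38.p6), where 5 of 5 genes matched for coordinates and 4 for promoters. The conditional knockout was not analysed here.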

Additional observations from a re-analysis of the deposited data

How the results depend on the processing

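The 4 calls between inhibitory and excitatory neurons and the 5 between inhibitory neurons and RGCs kept their direction and their side of the threshold under every alternative with a test, as did the Slc12a2 and Slc12a5 calls in mural cells and the 3 calls between excitatory neurons and RGCs. With 1 library left out no test is possible, since 1 sum per class remains, and values only are given. Without TMM the median over all genes moved by over 0.1 in 9 of 15 comparisons, by -0.24 to 0.24. The library as replicate block changed no call other than that of Slc32a1 in microglia (log2 2.20). The IPC comparisons and that of endothelial cells were not made under the stricter cell filter, which left under 20 cells in a library.

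The number of called members changed in several comparisons. With the wider IPC gate, chosen after seeing the data, excitatory neurons against IPCs gave 1 and IPCs against RGCs 3. The calls over all genes rose as well, to 7952 of 15243 and 6202 of 13276 tested, from 2847 of 14405 and 1765 of 11778. DESeq2 gave 1 for cycling Dlx-gated cells, 0 for deep-layer against newborn neurons, 1 for microglia and 1 for fibroblasts. Over all genes, in the same order, it called 2461 of 22438, 1105 of 22196, 1660 higher and 965 lower of 21056, and 3829 of 21221. The gate of 3 marker genes gave 0 for striatal-type cells, 0 for microglia and 2 for mural cells. Its calls over all genes were 292 higher and 430 lower of 9377, 1862 and 1732 of 11959, and 2883 and 2964 of 12360. The stricter cell filter gave 0 for deep-layer against newborn neurons (all genes: 1072 higher and 611 lower of 12292) and 1 for microglia (1521 and 1129 of 11874). For deep-layer against newborn neurons, all classes in 1 fit gave 0 (964 and 329 of 13085) and doublets kept 3 (1365 and 803 of 13184). Library sizes alone gave 0 for Cajal-Retzius cells (2319 and 1356 of 14773). The cause of these changes was not tested, and the stricter gates and filters also left fewer cells.

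Differences that turned sign passed the test in neither setting. Excitatory neurons against RGCs gave 0.21 for Slc32a1 (gate of 3) and 0.024 for Slc12a5 (stricter filter), and against IPCs -0.086 (no TMM) and -0.20 (gate of 3) for Slc32a1. Slc12a2 gave -0.086 between inhibitory neurons and IPCs (wider gate), and -0.019 and -0.022 between CGE-type and MGE-type cells with all classes in 1 fit and with the gate of 3. Gad2 gave 0.14 between IPCs and RGCs (gate of 3), -0.0036 between striatal-type and MGE-type cells (all classes in 1 fit) and 0.23 in Cajal-Retzius cells (doublets kept), where Slc12a5 gave -0.14 (stricter filter).

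Thinning to 1500 UMIs gave shares of inhibitory neurons of 41.6% for Gad1, 55.8% for Gad2, 9.29% for Slc32a1, 5.41% for Slc12a2 and 2.34% for Slc12a5. Leaving out either library, the shares ranged from 47.6 to 52.6%, 61.3 to 67.4%, 11.3 to 13.2%, 6.34 to 6.77% and 2.20 to 2.22%. The balance against RGCs ranged from 3.0 to 3.22 for inhibitory neurons, 0.59 to 0.90 for excitatory neurons and 0.35 to 1.29 for IPCs.

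Counts of all called genes moved by over 1.5 times in some fits. DESeq2 called 2461 against 4532 for cycling Dlx-gated cells, 273 against 448 for CGE-type, 516 against 927 for striatal-type, 1105 against 2130 for deep-layer neurons and 3829 against 5873 for fibroblasts. All classes in 1 fit called 3210 against 6671 between inhibitory and excitatory neurons and 1293 against 2130 for deep-layer neurons. Doublets kept gave 5613 and no filter 4198 against 2764 for microglia, and the stricter filter gave 290 against 448 for CGE-type cells. The wider IPC gate gave 7698 against 3449, 7952 against 2847 and 6202 against 1765 in comparisons with inhibitory neurons, excitatory neurons and RGCs.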

Other observations

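A pair of GABA-list genes stood out in fibroblasts and endothelial cells; they were chosen after their values were seen and are given as levels only. Slc6a13, the GABA transporter GAT2, was at 591 and 555 CPM in fibroblasts and at most 1.60 CPM on average in each of the other non-neural classes, inhibitory neurons, excitatory neurons and RGCs. Slc6a6, the taurine transporter, was at 387 and 617 CPM in endothelial cells, against 5.99 ± 2.86 in mural cells and 72.2 ± 5.21 in inhibitory neurons.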
